A study of Mus musculus with 2 samples.

Results

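Metallothioneins and NRF2 target genes were followed across a list of 10 genes: Mt1, Mt2, Mt3, Nqo1, Gclc, Gclm, Txnrd1, Srxn1, Slc7a11 and Gpx4. The members were taken by name from the 19465 genes of the count tables, and 9 of the 10 have a row there. Gpx4 was not analysed here. The tissue was mouse cerebellum with a tumor grown from HP organoids, which are mammary tumor organoids with the HER2 allele V777L and the PIK3CA allele H1047R. They were labelled with luciferase and injected into the cerebellum of 5-month-old B6 mice. The human HER2 transgene is driven by an actin promoter after Cre recombination, the mice received no treatment, and there is no section without tumor. The labels name the organoids HP-F1 with cre for section 1 and HP-B6 with cre for section 2. Each of the 2 sections, 5 µm thick and fixed in formalin, is 1 biological replicate and was read with Visium CytAssist, in which pairs of probes against mouse transcripts are counted as unique molecular identifiers (UMIs) on an array of spots. A spot covers a patch of tissue with several cells, often of different types.

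Metallothioneins are small cysteine-rich proteins that bind zinc and copper and buffer oxidants. Mt1 and Mt2 are induced by zinc through the factor MTF1 and by glucocorticoids and cytokines, and in the brain astrocytes are a main source, whereas Mt3 is the brain form. NRF2, the product of Nfe2l2, is held for degradation by KEAP1 until oxidants or electrophiles release it, and BACH1 competes with it at antioxidant response elements. Its targets supply glutathione (Gclc and Gclm, the subunits of glutamate-cysteine ligase, and Slc7a11, the cystine importer), the thioredoxin system (Txnrd1, thioredoxin reductase, and Srxn1, which restores oxidized peroxiredoxins) and quinone reduction (Nqo1).

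The DNA before the start of some of these genes is shown as a description. Mt1 and Mt2 were picked because they had nearly the same profile in the sections. Srxn1 was picked because it was among the glutathione and thioredoxin genes that were high together in spots of the tumor of section 2. The part of these sequences in the levels was not tested. Sequences are from RefSeq (GRCm38.p6, the build called mm10), are the 250 bases before an annotated start, and are written in the direction of the gene. Of the 10 members, 9 matched a promoter sequence. Gclc did not, so no motif was sought before its start. Capitals mark the core of the metal response element (TGCACNC or TGCGCNC, either strand) in the metallothioneins, and a relaxed antioxidant response element core (TGANNNNGC, either strand) in Srxn1. The windows lie at chr8:94172368-94172617 (plus strand) for Mt2, chr8:94152357-94152606 (plus strand) for Mt3 and chr2:152105274-152105523 (plus strand) for Srxn1.
Mt2: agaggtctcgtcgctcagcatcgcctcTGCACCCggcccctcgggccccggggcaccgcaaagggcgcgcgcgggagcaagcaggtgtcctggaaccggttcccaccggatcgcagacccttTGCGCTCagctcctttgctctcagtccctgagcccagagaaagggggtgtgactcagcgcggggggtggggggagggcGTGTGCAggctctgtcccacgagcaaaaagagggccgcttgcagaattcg
Mt3: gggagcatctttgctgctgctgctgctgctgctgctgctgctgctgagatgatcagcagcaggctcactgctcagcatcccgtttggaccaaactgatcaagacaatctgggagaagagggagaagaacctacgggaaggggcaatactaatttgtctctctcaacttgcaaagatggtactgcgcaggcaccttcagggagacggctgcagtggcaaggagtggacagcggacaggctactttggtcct
Srxn1: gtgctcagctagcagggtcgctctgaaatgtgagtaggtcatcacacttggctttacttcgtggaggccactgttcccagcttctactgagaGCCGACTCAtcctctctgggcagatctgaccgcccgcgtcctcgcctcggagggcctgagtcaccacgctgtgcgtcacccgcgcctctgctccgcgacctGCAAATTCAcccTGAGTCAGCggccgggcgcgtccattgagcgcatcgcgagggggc

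The window of Mt2 held 3 matches to the metal response core and that of Mt3 held 0. Of all 32851 promoter windows of this length, 21.4% held at least 1 match and 1.26% held 3 or more. The window of Mt1 (chr8:94178839-94179088, plus strand) overlaps the annotated gene and held 1 match, so only the 30 bases around it are printed. With the 50 bases after the start included, 3 matches were found for Mt1, 4 for Mt2 and 1 for Mt3, and 25.7% of all windows of 300 bases held at least 1. Gclm, which is not a metallothionein, held 2 matches to the metal response core in its 250 bases. Srxn1 held 3 matches to the relaxed antioxidant core, a number reached by 1.06% of windows, while Slc7a11 held 2 and Gclm 1. Of the metallothioneins, Mt3 held 2 matches to this core and Mt2 held 1. At least 1 such match was present in 35.2% of windows. The stricter core TGACNNNGC, a subset of the relaxed one, was matched in 10.2% of windows and at 1 place each in Gclm, Mt2 and 1 of the 3 starts of Txnrd1. Nqo1 held no match to either antioxidant core in this window, and Srxn1 held no match to the stricter core. The sites of Mt1, Gclm and Slc7a11 are shown at 30 bases each.
Mt1 (chr8:94179055-94179084, plus strand): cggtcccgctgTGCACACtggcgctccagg
Gclm (chr3:122245413-122245442, plus strand): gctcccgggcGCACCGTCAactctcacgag
Slc7a11 (chr3:50443639-50443668, minus strand): tggagaatttGCATCATCAtgcagcccagt

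Regions were drawn from the counts themselves. The share of UMIs from 26 measured neural markers, none of them a member, was taken over each spot and its neighbours and cut by Otsu's method in each section, and connected groups of at least 100 spots under the threshold are the tumor mass. Tumor spots lie at least 4 array steps inside its border, the 3 steps on either side are the tumor-side and neural-side edge, and neural spots lie at least 4 steps outside. Genes of neural cells are therefore lower in tumor by the way regions were drawn. The regions held 600, 162, 177 and 2376 spots in section 1 and 485, 286, 240 and 2871 in section 2, in that order, with 3551433 to 32373438 UMIs each. The tumors of the sections did not hold the same cells. Epithelial markers summed to 54.1 CPM (UMIs scaled to 1000000 per region, with TMM factors) in the tumor of section 1 and 13791 CPM in that of section 2, and fibroblast markers to 59248 and 707 CPM. Levels of the members are therefore given by section, and the part of this difference in any result was not tested.

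Mt1, Mt2 and Mt3 were lower in tumor than in neural tissue in both sections, by 3.45-, 2.99- and 12.8-fold. Txnrd1 was 1.65-fold higher. The other 5 measured members, Nqo1, Gclc, Gclm, Srxn1 and Slc7a11, did not pass the test, and Gclc and Gclm ran in opposite directions in the sections. The 4 called members of 9 tested, 1 higher and 3 lower, stand beside 34.8% of all 19164 tested genes called in this comparison, 16.8% higher and 18% lower. The median log2 difference was -0.67 over the members and -0.14 over all tested genes. Calls are at an adjusted p below 0.05 in edgeR's quasi-likelihood test over all tested genes, with section as a block. The test rests on 2 animals, so the spread between animals is poorly known. With regions drawn by 2-means clustering, Mt1 (-1.22) and Mt2 (-0.97) were no longer called.

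**Figure D1:**
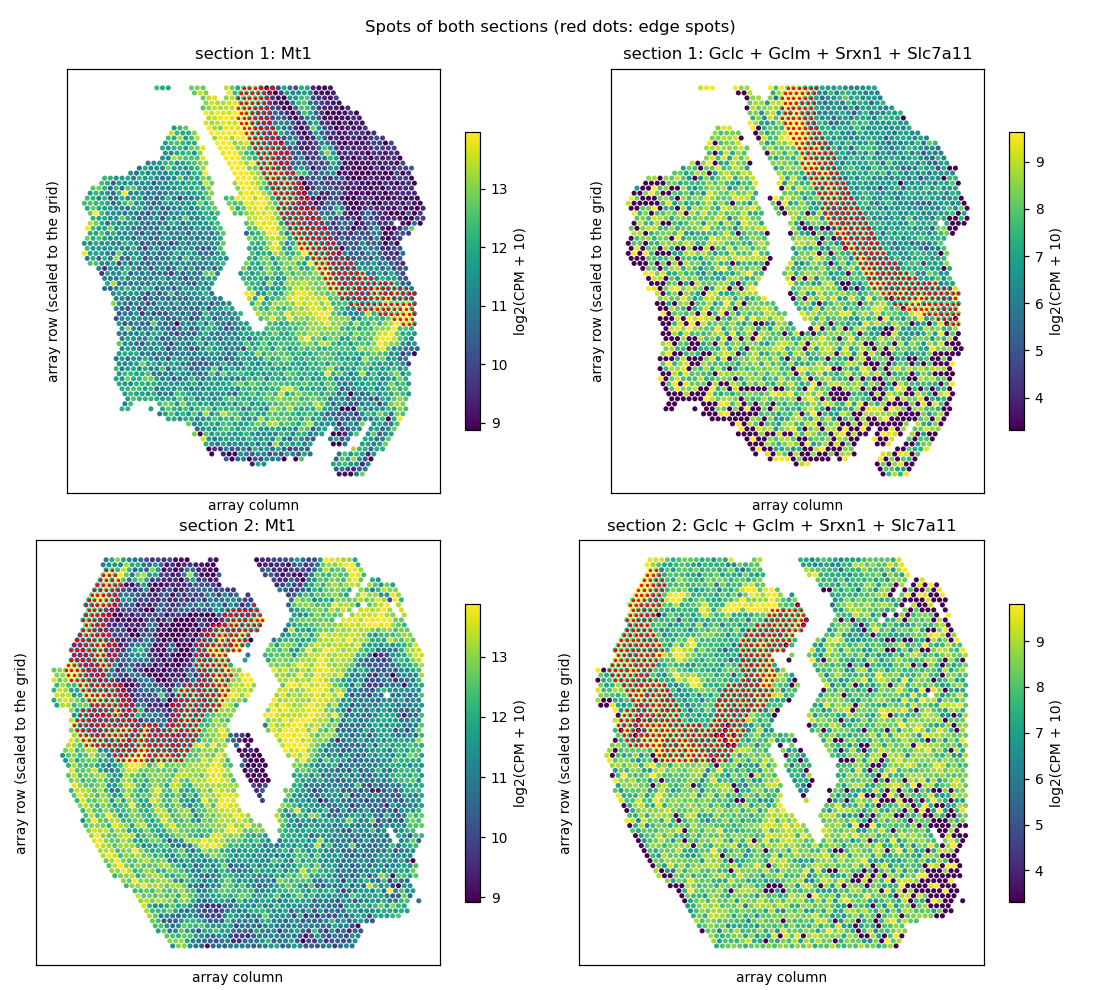
Spots of both sections at their place on the array, with red dots on edge spots. Color gives the level of Mt1 (left) or the summed level of Gclc, Gclm, Srxn1 and Slc7a11 (right). It is log2(CPM + 10), without TMM factors, on a scale set for each panel. Mt1 was low in both tumors and high in bands of neural tissue outside the red zone, and the summed level on the right stood out in patches of the tumor of section 2.

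Mt1 measured 1311 CPM in tumor, 2485 CPM in the tumor-side edge, 4932 CPM in the neural-side edge and 4430 CPM in neural tissue of section 1. In section 2 it measured 1557, 2980, 5847 and 5474 CPM in the same order. With TMM factors, the order of the 4 regions was the same in both sections, with the neural-side edge highest. Without them, neural tissue was higher than the neural-side edge in section 2. The neural-side edge had 5599 CPM there, against 7497, 7492 and 5511 CPM at 4 to 6, 7 to 9 and over 9 neural steps. Neural-side edge and neural tissue were not tested against each other. The log2 difference of tumor and neural tissue was -1.79 ± 0.26 (SE, n = 2 sections; edgeR adjusted p = 0.00519), with -1.76 in section 1 and -1.81 in section 2. The gene lies at chr8:94178883-94180327, beside Mt2 and Mt3.

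Mt2 followed the same course. It measured 961, 1608, 3409 and 2643 CPM from tumor to neural tissue in section 1, and 1034, 2152, 4149 and 3376 CPM in section 2. Its log2 difference of tumor and neural tissue was -1.58 ± 0.25 (edgeR adjusted p = 0.00665). The gene lies at chr8:94172618-94173567. Over 8 distance bands in each section, 16 points that share libraries, the log2 levels of Mt1 and Mt2 had a Pearson r of 0.996, and no other of 11559 genes with a mean of at least 10 CPM came closer to either. The next most alike were Cldn11 (r = 0.982), a myelin gene, and Klk6 (0.977) for Mt1, and Dhrs1 and Trf, transferrin (both 0.980), for Mt2. Cldn11 is among the neural markers that drew the border, so its course over the bands was partly set by the region rule. Within neural tissue, spots rich in oligodendrocyte markers had less Mt1 and Mt2 in CPM, as given below.

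Mt3 was not highest at the neural-side edge. It measured 183, 289, 635 and 1617 CPM from tumor to neural tissue in section 1, and 85.0, 385, 941 and 1826 CPM in section 2, so it was highest in neural tissue away from the border in both. Its log2 difference of tumor and neural tissue was -3.68 ± 0.49 (edgeR adjusted p = 0.00410), with -3.14 in section 1 and -4.42 in section 2. The genes most like Mt3 across the bands were Atp1b2 (r = 0.998), Gabrb1 (0.995) and Scg3 (0.994). Atp1b2 encodes a sodium pump subunit and Gabrb1 a GABA receptor subunit. Mt3 lies at chr8:94152607-94154148.

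These levels are shares of all UMIs in a region, and spots differed in their totals. The median spot held 56956 UMIs in tumor and 7587 in neural tissue of section 1, and 42743 and 9869 in section 2. Counted per spot, Mt1 gave 67.4 UMIs in tumor, 107 and 117 in the edge and 45.9 in neural tissue of section 1, and 58.3, 104, 115 and 64.8 in section 2. The ratio of tumor to neural tissue per spot was thus 1.47 in section 1 and 0.901 in section 2 for Mt1, and 1.80 and 0.970 for Mt2, so per spot their deficit in tumor was not present in section 1 and small in section 2. For Mt3 it was 0.562 and 0.147, lower in tumor on both scales. The NRF2 targets were all higher in tumor than in neural tissue per spot, in both sections. The ratios were 3.19 and 2.55 for Nqo1, 2.998 and 4.79 for Gclc, 2.30 and 4.00 for Gclm, 6.91 and 6.08 for Txnrd1, 2.29 and 2.55 for Srxn1 and 1.66 and 2.60 for Slc7a11. For Nqo1, Srxn1 and Slc7a11 in both sections, and for Gclc and Gclm in section 1, this is the opposite direction to CPM. Values per spot were not tested. Tumor spots held more UMIs in all, by the medians above. A gene with an equal share in both regions is therefore higher per spot in tumor. The edge had the most Mt1 UMIs per spot of the 4 regions in both sections. Less RNA of a gene per cell and fewer cells that make it cannot be told apart in spots.

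**Figure D2:**
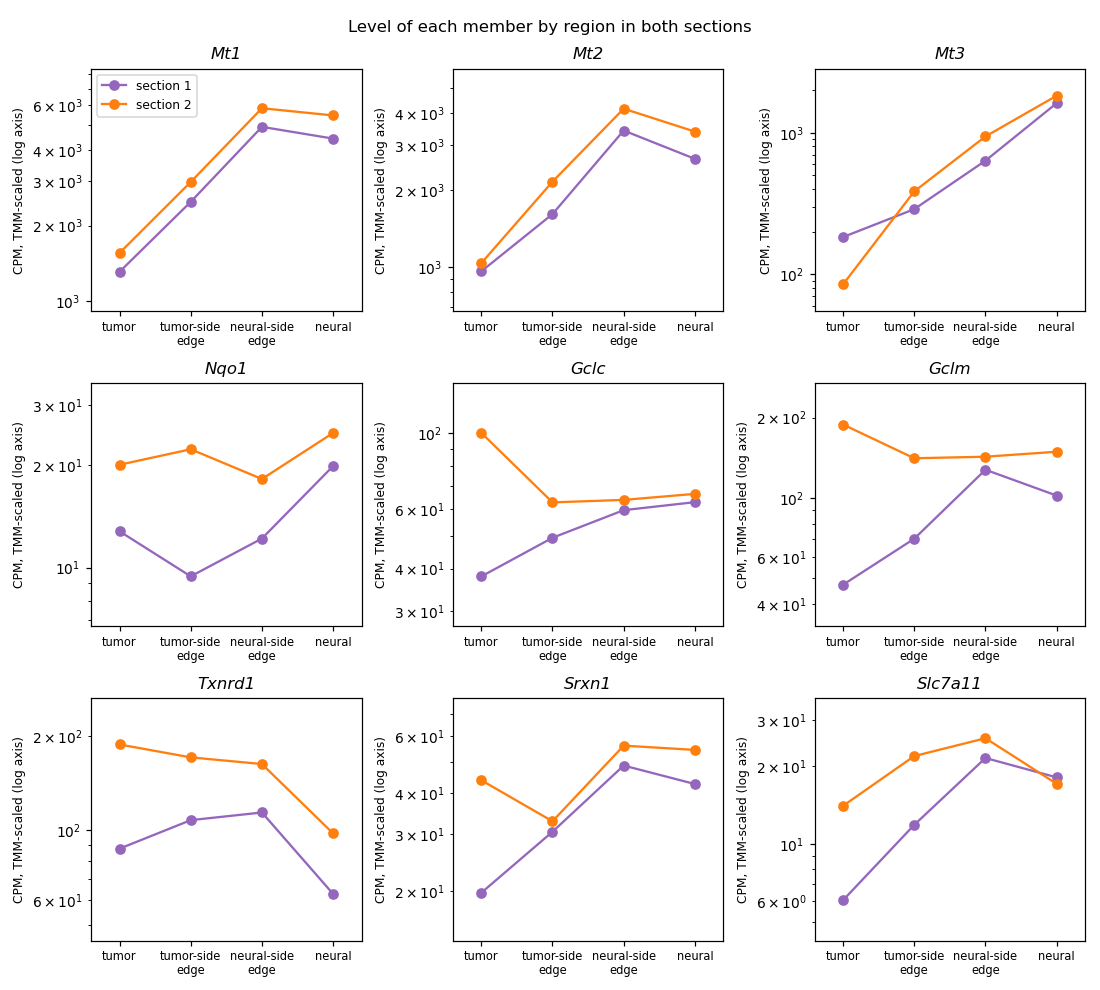
Level of the 9 measured members in the 4 regions, as CPM scaled by TMM on log axes, with 1 line for each section. Mt1 and Mt2 ran in parallel in the sections. The lines of Mt3 rose from tumor to neural tissue in both sections but crossed between tumor and tumor-side edge. Gclc and Gclm were lowest in tumor in section 1 and highest there in section 2.

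Distance from the border gave a finer course. CPM by distance have no TMM factors. The neural-side edge of section 1 thus read 4932 CPM of Mt1 as a region and 5820 CPM here. In section 1, Mt1 measured 949 CPM more than 9 steps inside the tumor mass and 2292 CPM in its outer 3 steps. It measured 5820 CPM in the first 3 neural steps, 9920 CPM at 4 to 6 steps, 11318 CPM at 7 to 9 steps and 3721 CPM farther away. In section 2 the same bands gave 1097, 2704, 5599, 7497, 7492 and 5511 CPM. In CPM, Mt1 was thus higher at 4 to 9 steps into neural tissue than in the first 3 steps at the border in both sections. Per spot this held in section 1 only, with 117, 146 and 123 UMIs at 1 to 3, 4 to 6 and 7 to 9 steps. In section 2 the same bands had 115, 103 and 103 UMIs of Mt1. Per spot, Mt2 had 80.7, 90.1 and 78.0 UMIs in these bands of section 1 and 81.7, 74.2 and 71.3 in section 2. Mt2 gave 4023, 6103, 7172 and 2131 CPM in the 4 neural bands of section 1 and 3972, 5401, 5180 and 3281 CPM in those of section 2. The band of high Mt1 and Mt2 was sharper in section 1, where the highest step was step 8 for Mt1, at 13091 CPM over 66 spots. In section 2 steps 4 to 9 lay between 7128 and 7956 CPM for Mt1, and steps 12 to 20 were higher, between 7988 and 10838 CPM, which the pooled band beyond 9 steps does not show. The highest single step there was step 18 for Mt1, over 67 spots, and step 20 for Mt2, at 6292 CPM, and the map shows high Mt1 across a gap from the tumor. Distances are straight lines on the array, gaps included. These bands were not tested.

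Mt3 had 749, 1780, 2689 and 1876 CPM in the neural bands of section 1 and 901, 1672, 1528 and 1994 CPM in those of section 2. Its highest step was step 8 in section 1 and step 18 in section 2, the same steps as for Mt1. Hmox1, heme oxygenase and also a target of NRF2 and BACH1, is set beside them because its highest steps lay elsewhere. It measured 2252 CPM in the first 3 neural steps of section 1 and 194 CPM at 7 to 9 steps, where Mt1 was highest in CPM. In section 2 it measured 901 CPM in the first 3 neural steps, 386 CPM at 4 to 6 steps and 686 CPM at 7 to 9 steps.

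**Figure D3:**
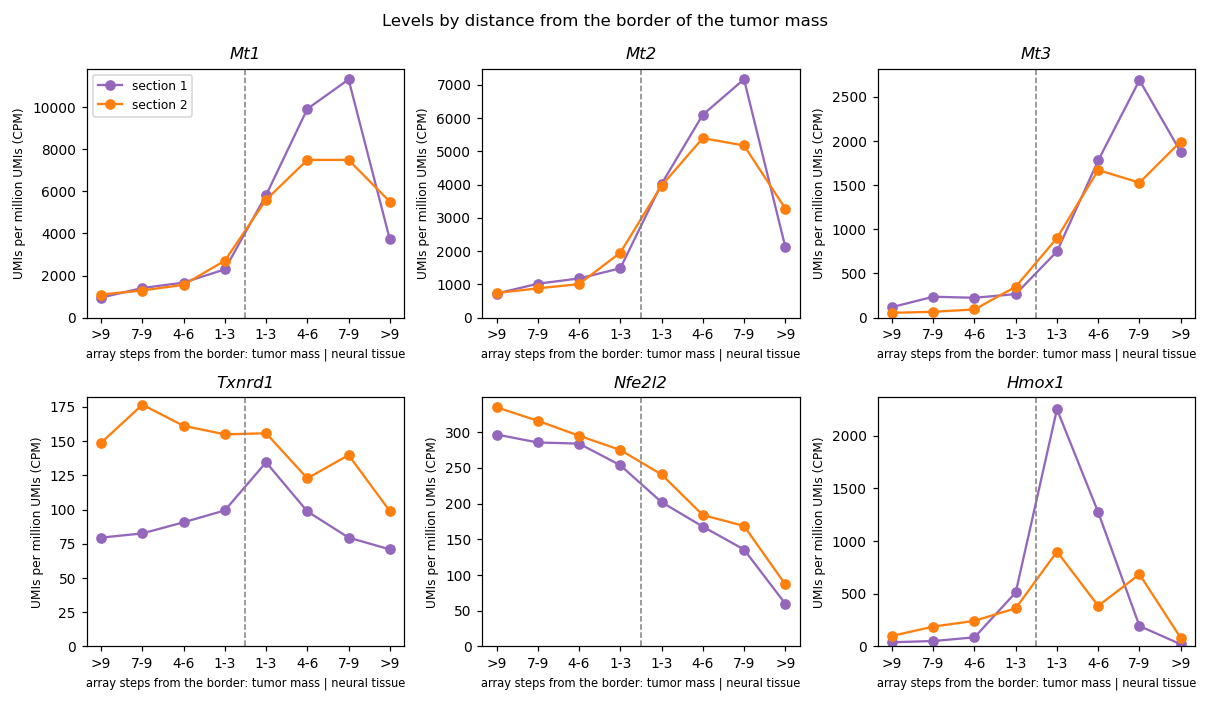
Levels of Mt1, Mt2, Mt3, Txnrd1, Nfe2l2 and Hmox1 against array steps from the border of the tumor mass (dashed line). Levels are CPM without TMM factors, with 1 line for each section. Of the bands drawn, those at 4 to 9 steps into neural tissue were highest for Mt1 and Mt2, and the first 3 neural steps for Hmox1, and Nfe2l2 was highest deep in the tumor.

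Within neural tissue, spots rich in astrocyte markers had more Mt1 and Mt2. In the 10% of neural spots with the largest share of UMIs from 9 astrocyte and Bergmann glia markers, Mt1 measured 11039 CPM against 4680 CPM in the other spots of section 1, a ratio of 2.36, and 8987 against 5519 CPM in section 2, a ratio of 1.63. The ratio was 2.69 and 1.61 for Mt2, and 1.54 and 1.08 for Mt3. In the neural-side edge the astrocyte-richest 10%, 18 and 24 spots, had ratios of 1.91 and 1.90 for Mt1 and 1.97 and 2.16 for Mt3. Those edge spots held fewer UMIs, at medians of 13766 and 9732 against 20037 and 21172 in the others. They were not matched for place. Other lists gave ratios above 1 as well. Neural spots rich in choroid plexus markers had Mt1 at ratios of 2.68 and 1.35 and Mt2 at 2.85 and 1.31, in section 1 above those of the astrocyte list. Ttr made up most of that list in neural tissue, at 451 of 479 CPM in section 1 and 352 of 374 CPM in section 2. A group of 45 spots of section 2 with these markers at 226209 CPM, left out of the regions, measured only 622 CPM for Mt1 and 203 CPM for Mt2. Microglia-rich neural spots had Mt1 at ratios of 1.85 and 1.69, but in the neural-side edge the microglia-richest 10% had ratios of 0.726 and 0.537. Granule neuron-rich spots were lower in CPM, with ratios of 0.835 and 0.631 for Mt1 and 0.673 and 0.546 for Mt3. Oligodendrocyte-rich spots had ratios of 0.813 and 0.842 for Mt1, 0.732 and 0.688 for Mt2, and 1.034 and 1.085 for Mt3. Depth differed between the spots compared. The median granule neuron-rich spot held 8407 and 17850 UMIs, against 7559 and 9369 in the others. The median oligodendrocyte-rich spot held 3460 and 5004 UMIs, against 8115 and 10568. Ratios of CPM do not give UMIs per spot. Over neural spots, Mt1 and Mt2 had a Spearman rho of 0.678 in section 1 (2376 spots) and 0.835 in section 2 (2871 spots), and Mt1 and Mt3 one of 0.386 and 0.356. Spots of 1 section are not replicates, and these ratios and correlations have no test.

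The astrocyte list itself measured 1750, 2426, 3139 and 5215 CPM from tumor to neural tissue in section 1, and 5289, 5771, 6355 and 7926 CPM in section 2, with none of its 9 genes at 0. In the tumor of section 2 it was led by Gja1, at 3701 CPM, and Sox9, at 900 CPM, which epithelial cells also express. Aldoc, an astrocyte enzyme, measured 1944 CPM in neural tissue and 119 CPM in tumor of section 1, and 1777 and 206 CPM in section 2. Gfap measured 951, 1373, 1826 and 1238 CPM in section 1 and 347, 1688, 3692 and 3988 CPM in section 2. The part of astrocyte number in the metallothionein levels was not tested.

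Within the tumor, the metallothioneins were higher in spots rich in macrophage or in endothelial markers. In the 10% of tumor spots with the largest macrophage marker share, Mt1 measured 1727 CPM against 1185 CPM in section 1 and 2580 against 1230 CPM in section 2. Mt3 measured 256 against 164 CPM and 260 against 55.0 CPM. In the 10% richest in endothelial markers the ratios were 1.22 and 1.93 for Mt1 and 1.22 and 3.74 for Mt3. In the neural-side edge the order was the opposite, and the macrophage-richest 10% had Mt1 at ratios of 0.782 and 0.513. Macrophage markers summed to 4279, 4300, 4033 and 850 CPM from tumor to neural tissue in section 1, and 760, 1642, 3752 and 913 CPM in section 2. The chosen spots were not matched for place. Between the pooled bands at over 9 and at 4 to 6 steps inside the border, Mt1 went from 949 to 1662 CPM in section 1. In section 2 it went from 1097 to 1559 CPM. Mt3 went from 118 to 224 CPM and from 53.7 to 92.0 CPM. Single steps did not rise evenly. In section 1, step 10 inside the border had 2086 CPM of Mt1 and 381 CPM of Mt3, and step 8 had 1270 and 203 CPM. In section 2, step 13 inside the border had 1609 CPM of Mt1 and 210 CPM of Mt3, over 12 spots. The part of place in these ratios was not tested, and the ratios have no test.

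Txnrd1 was the called member that was higher in tumor. It measured 87.5, 108, 114 and 62.8 CPM from tumor to neural tissue in section 1, and 188, 171, 163 and 97.8 CPM in section 2, so neural tissue was the lowest region in both sections. The log2 difference of tumor and neural tissue was 0.72 ± 0.20 (SE, n = 2 sections; edgeR adjusted p = 0.0397), with 0.48 in section 1 and 0.94 in section 2. This call is close to the threshold and was lost without the section block (log2 difference 0.78), with library size as the only scaling (0.41), with the edge sides in 1 library (0.72) and with neural tissue at 4 to 12 steps (0.48). The gene lies at chr10:82833951-82897724. Across the distance bands the most alike were Igf2bp2 (r = 0.961), Ier3 (0.953) and Gsr, glutathione reductase (0.953).

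The genes of glutathione synthesis ran apart in the sections. Gclc measured 37.9, 49.3, 59.4 and 62.7 CPM from tumor to neural tissue in section 1, and 100.3, 62.6, 63.7 and 66.3 CPM in section 2. It was lowest in tumor in section 1 and highest there in section 2, and its log2 difference was -0.72 and 0.59 (fitted -0.01 ± 0.36; edgeR adjusted p = 0.991). Gclm measured 47.2, 70.3, 127 and 102 CPM in section 1, and 188, 141, 143 and 149 CPM in section 2. Its log2 difference was -1.10 and 0.34 (fitted -0.30 ± 0.44; edgeR adjusted p = 0.607). Across the bands Gclc and Gclm had an r of 0.903 with each other. With 1 animal behind each kind of tumor, the difference between the sections cannot be tested.

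Slc7a11 measured 6.07, 11.9, 21.5 and 18.1 CPM from tumor to neural tissue in section 1, and 14.0, 21.8, 25.6 and 17.1 CPM in section 2, from 83 to 580 UMIs in a library. In CPM it was lowest in tumor and highest at the neural-side edge in both sections. Per spot it was lowest in neural tissue (0.187 and 0.202 UMIs, against 0.312 and 0.526 in tumor) and highest in the tumor-side edge (0.512 and 0.762 UMIs). The log2 difference of tumor and neural tissue was -1.50 and -0.27 and did not pass the test (fitted -0.93 ± 0.37; edgeR adjusted p = 0.105).

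Srxn1 measured 19.7, 30.4, 48.7 and 42.7 CPM in section 1, and 43.9, 32.8, 56.1 and 54.4 CPM in section 2. In CPM with TMM factors the neural-side edge was again highest in both sections. Without them, neural tissue was higher than the neural-side edge in section 2. The neural-side edge had 53.7 CPM there, against 50.5, 45.0 and 59.4 CPM at 4 to 6, 7 to 9 and over 9 neural steps. The highest single step was step 13 in section 1 and step 19 in section 2. The log2 difference of tumor and neural tissue was -0.67 ± 0.29 (edgeR adjusted p = 0.127). Nqo1 was sparse, with 51 to 844 UMIs in a library. It measured 12.8, 9.43, 12.2 and 19.9 CPM in section 1, and 20.0, 22.2, 18.2 and 24.8 CPM in section 2, a log2 difference of -0.48 ± 0.28 (edgeR adjusted p = 0.225). Neural tissue was the highest region for Nqo1 in CPM in both sections.

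**Figure D4:**
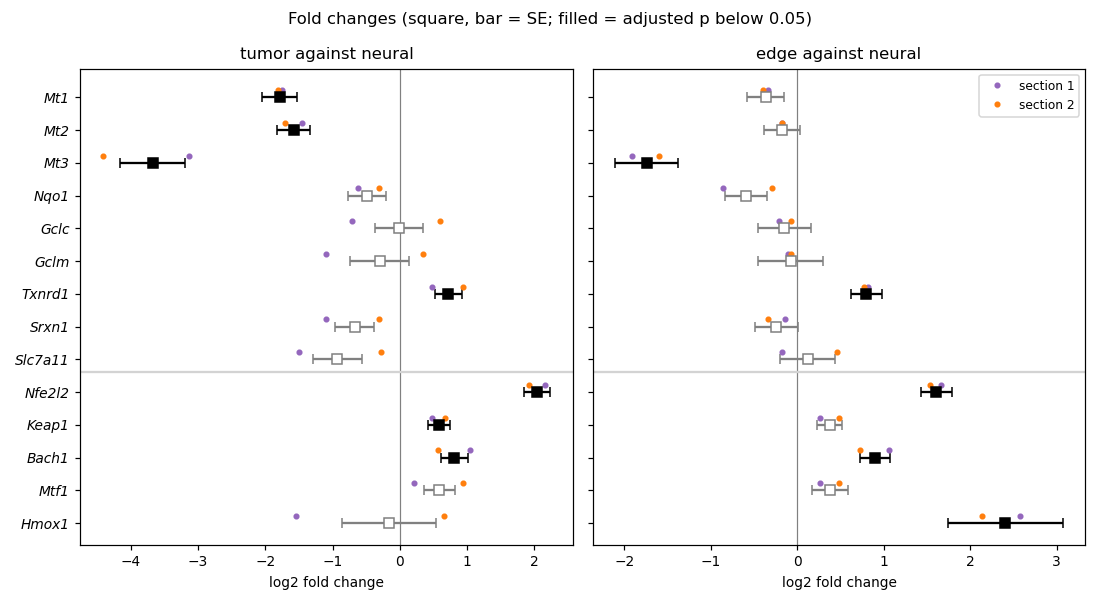
Log2 fold changes of the 9 measured members and of 5 regulators and targets in tumor against neural tissue (left) and edge against neural tissue (right). Squares with bars give the fitted value and its SE, filled where the adjusted p is below 0.05, and dots give the sections. Mt3 was low and Txnrd1 high in both comparisons, while the dots of Gclc, Gclm and Hmox1 lie on either side of 0 on the left.

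In the tumor of section 2 the levels of Gclc, Gclm, Srxn1 and Slc7a11 were concentrated in some of the spots. In the 10% of its tumor spots with the largest share of UMIs from neutrophil markers, 49 spots at 4 to 14 steps inside the border, Gclc measured 259 CPM against 71.2 CPM in the other 436 spots, a ratio of 3.64. The ratio was 4.27 for Srxn1 (127 against 29.8 CPM), 4.20 for Slc7a11 (40.2 against 9.58 CPM) and 2.24 for Gclm (331 against 148 CPM). It was 1.66 for Nqo1, 1.49 for Txnrd1 and 1.60 for Mt1. The spots chosen in the same way in section 1, 60 in all, had ratios of 0.796 to 1.31 for Nqo1, Gclc, Gclm, Txnrd1, Srxn1 and Slc7a11, so the pattern was seen in 1 section. Median depth was 37741 UMIs in the 49 spots and 43396 in the others.

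The markers that picked those 49 spots were mainly S100a9, at 126 against 19.0 CPM, and S100a8, at 84.9 against 11.7 CPM, while Ly6g rested on 4 UMIs. Genes chosen after these values had been seen were also higher there. Osgin1 measured 109 against 43.4 CPM and Sprr1a 21.8 against 12.6 CPM. Smaller differences were seen for Krt6a (217 against 150 CPM), Gsr (705 against 529), G6pdx (27.4 against 22.3), Krt14 (1035 against 859), Nfe2l2 (351 against 308) and Txn1 (1248 against 1145). Vegfa, an angiogenic factor, measured 632 against 290 CPM, and Slc2a1, a glucose transporter, 664 against 304 CPM. Car9, carbonic anhydrase, measured 250 against 142 CPM, and Hmox1 626 against 149 CPM. Vegfa, Slc2a1 and Car9 are known targets of the hypoxia factor HIF1A, and Hmox1 responds to heme and oxidants. Their part in the levels of the members was not tested. Over the 485 tumor spots of section 2, Gclc and Gclm had a Spearman rho of 0.351, Gclm and Slc7a11 one of 0.352 and Gclc and Srxn1 one of 0.320. The same pairs had 0.0507, 0.0602 and 0.0554 over the 600 tumor spots of section 1. The median tumor spot held 2 UMIs of Gclc in both sections, and 2 UMIs of Gclm in section 1 against 6 in section 2. Of the 6 marker lists used to rank tumor spots, the epithelial list gave the lowest ratios in section 2 for Gclc (0.469) and Slc7a11 (0.254), while for Gclm the macrophage list was lower (0.771 against 0.814). The neutrophil list gave the highest ratios for Gclc, Gclm, Srxn1 and Slc7a11. For these genes, in that order, the T cell list gave 1.30, 1.32, 1.75 and 2.90. The endothelial list gave 1.17, 0.950, 1.58 and 2.53.

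Between edge and neural tissue, 2 of the 9 members were called, 1 higher and 1 lower, beside 26.6% of all genes tested, 12.6% higher and 14% lower. Mt3 was 3.34-fold lower (log2 difference -1.74 ± 0.36; edgeR adjusted p = 0.0213) and Txnrd1 1.74-fold higher (0.80 ± 0.18; edgeR adjusted p = 0.0257). Mt1 and Mt2 differed by -0.37 ± 0.22 and -0.17 ± 0.21 and were not called. Joining the edge sides into 1 library ended the calls of Mt3 and Txnrd1, at -1.82 and 0.78, as did 2-means regions, at -0.68 and 0.59. The call of Mt3 was also lost with an unsmoothed neural share (-1.82), and that of Txnrd1 without the section block (0.79) and with library size alone (0.60). Limiting neural tissue to 4 to 12 steps from the tumor keeps the bands at 4 to 9 steps, where Mt1 and Mt2 were high in CPM. In section 2 it leaves out the highest of the steps up to 20. These were step 18 for Mt1, at 10838 CPM, and step 20 for Mt2, at 6292 CPM. With that limit Mt1 and Mt2 were called lower in the edge (-0.97 and -0.89) and Txnrd1 was no longer called (0.55).

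Between tumor and edge, 0 of 9 members were called by edgeR, beside 1.68% of all genes tested. Mt1 and Mt2 came closest, at -1.42 ± 0.23 (edgeR adjusted p = 0.0547, unadjusted 0.00112) and -1.41 ± 0.23 (adjusted p = 0.0536, unadjusted 0.00101), lower in tumor in 2 of 2 sections. DESeq2 called 3 members, Mt1, Mt2 and Mt3, among 1699 genes that it called in all, against 322 called by edgeR. Between the sides of the edge edgeR called 0 members, beside 0% of all genes tested, whereas 3347 genes had an unadjusted p below 0.05. Mt1 and Mt2 were lower on the tumor side at -0.98 ± 0.26 and -1.01 ± 0.25 (edgeR adjusted p = 0.190 and 0.182). DESeq2 called both, among 1479 genes that it called in all.

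Nfe2l2, which encodes NRF2, measured 305, 275, 171 and 68.3 CPM from tumor to neural tissue in section 1, and 359, 303, 252 and 94.6 CPM in section 2. It was 4.11-fold higher in tumor than in neural tissue (log2 difference 2.04 ± 0.20; edgeR adjusted p = 0.00178). Its repressor partner Keap1 was 1.49-fold higher (0.58 ± 0.16; edgeR adjusted p = 0.0401) and Bach1 1.75-fold higher (0.81 ± 0.20; edgeR adjusted p = 0.0264). The call of Nfe2l2 held under every alternative. Those of Keap1 and Bach1 were lost with library size alone (0.27 and 0.50), without the section block (0.59 and 0.80) and with neural tissue at 4 to 12 steps (0.47 and 0.46), and that of Keap1 also with joined edge sides (0.58). The transcript of the factor was thus higher in tumor. Of the 9 measured members, 8 had a fitted difference below 0, and of these only the 3 metallothioneins passed the test. The others of the 8 are the NRF2 targets Nqo1, Gclc (-0.01), Gclm, Srxn1 and Slc7a11, which per spot were higher in tumor in both sections. Tumor spots also held more UMIs in all. Txnrd1, also an NRF2 target, was called higher in tumor. Mtf1, the zinc-responsive factor of the metallothioneins, measured 29.5 CPM in tumor and 25.5 CPM in neural tissue of section 1, and 77.2 and 39.9 CPM in section 2 (log2 difference 0.59 ± 0.24; edgeR adjusted p = 0.105). Hmox1 measured 58.4, 556, 1909 and 172 CPM in section 1, and 219, 400, 941 and 139 CPM in section 2. It was called 5.30-fold higher in edge than in neural tissue (2.41 ± 0.66; edgeR adjusted p = 0.0484), while tumor and neural tissue differed in opposite directions in the sections (fitted -0.16 ± 0.70, but 2.83 and called with 2-means regions). The call at the edge was lost with library size alone (2.22), with joined sides (2.39), with neural tissue at 4 to 12 steps (0.77) and with an unsmoothed neural share (2.24).

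Wider gene lists around the members were mixed. Of 30 measured genes of NRF2 and glutathione, 7 were called higher and 3 lower in tumor than in neural tissue, beside 16.8% and 18% of all genes tested, with a median log2 difference of 0.33 beside -0.14 for all genes. Those with the largest called differences were Txnip (2.72), Osgin1 (2.51) and Txn1, thioredoxin (2.14), which were higher, and Gstm1 (-2.63), Gsta4 (-1.96) and Prdx6 (-0.82), which were lower. Osgin1 measured 15.6 CPM in the tumor of section 1 and 56.3 CPM in that of section 2. Txn1 measured 678 and 1327 CPM in the tumors and 189 and 245 CPM in neural tissue. Txnip inhibits thioredoxin, and Gstm1 and Prdx6 are abundant in astrocytes. Of 7 genes that control NRF2, 3 were called higher, those named above, and 0 lower.

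Of 20 genes of zinc and copper handling, 8 were called higher in tumor than in neural tissue and 4 lower. Of all genes tested, 16.8% were called higher and 18% lower, which also stand beside the counts of the next lists. The median log2 difference of the zinc and copper list was 0.58, beside -0.14 for all genes. Cp, ceruloplasmin, measured 191 and 766 CPM in the tumors and 34.4 and 83.6 CPM in neural tissue (2.84). The copper importer Slc31a1 (1.42) and the copper pump Atp7a (1.30) were also higher. Slc30a3, the zinc carrier of synaptic vesicles (-2.60), the manganese exporter Slc30a10 (-1.87) and Atp7b (-1.86) were lower. Of 14 genes of lipid peroxidation and ferroptosis, 5 were called higher and 0 lower. Acsl4 (1.71) and Gpx1 (1.66) and the tetrahydrobiopterin enzyme Gch1 (1.55) led, and Gpx1 measured 914 and 850 CPM in the tumors against 236 and 323 CPM in neural tissue. Of 10 genes of selenoprotein synthesis, 0 were called higher and 2 lower, the selenoprotein P receptor Lrp8 (-1.76) and Pstk (-0.66). Between edge and neural tissue, 10 genes of the NRF2 and glutathione list were called higher and 1 lower, beside 12.6% and 14% of all genes tested. The counts were 2 and 0 for the control of NRF2, 5 and 2 for zinc and copper, 5 and 1 for lipid peroxidation and 0 and 2 for selenoprotein synthesis.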

How the data were processed

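UMI counts were measured in 2 mouse cerebellar sections with tumors of HP organoids. The authors aligned reads and counted UMIs per gene and spot with Space Ranger 2.1.1 (mm10, per the labels), and the deposited counts are raw, without normalization. Spots with under 500 UMIs or 10 genes were left out, as were groups of under 100 spots below the neural threshold. Counts were summed per section and region into 8 libraries and fitted with edgeR 4.0.16 in R 4.3.3 (TMM, filterByExpr, glmQLFit with robust estimation, section as a block, 3 residual degrees of freedom, Benjamini-Hochberg over 19164 of 19465 genes). The edge is the mean of its sides. The clusters of the authors were not used here, so regions were redrawn.

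Each section is 1 mouse, so its regions are paired. The common dispersion was 0.0904 with the section block and 0.189 without it, and deviations of the regions of a section correlated at 0.365 to 0.849. Section differences used log2(CPM + 0.5) with TMM factors, and likeness log2(CPM + 1) without them. Counts were also simulated with 200 genes changed in the tumor libraries and all others level across regions. There the tumor against neural test recovered 1% of 2-fold and 48% of 4-fold changes among 19042 genes and called 9 unchanged genes. In the data 6664 genes were called, so the adjusted p threshold was less strict than in the simulation. These rates therefore do not give the power in the data. A 2-fold change that is not called is not shown to be absent. Alternatives were DESeq2 1.42.0, RLE factors, library size alone, no count filter, no block, other region rules and leaving out a section. The members, lists and region rules were chosen with earlier results of these data known. Named genes are all members, 5 regulators and targets, and from each wider list the 3 largest called changes in each direction with 1 direction in both sections. Python 3.11.15, numpy 2.4.6, scipy 1.17.1, pandas 2.3.3 and matplotlib 3.10.9 were used.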

Additional observations from a re-analysis of the deposited data

How the results depend on the processing

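Mt1, Mt2, Mt3 and Txnrd1 kept their direction in tumor against neural tissue under every alternative. The count of called members there fell from 4 to 2 with regions from 2-means, where Mt1 (-1.22) and Mt2 (-0.97) were no longer called. In tumor against edge it rose from 0 to 3 with DESeq2 and with 2-means, to 2 with library size alone and with an edge of 2 steps, and to 1 with neural tissue at 4 to 12 steps. In edge against neural it fell from 2 to 1 with library size alone, without the section block and with an unsmoothed neural share, and to 0 with 2-means and with both edge sides in 1 library. Between the edge sides it rose from 0 to 2 with DESeq2. Regarding the pairing of regions by section (replicate block), leaving the block out lowered all genes called from 6664 to 3813 in tumor against neural and from 5095 to 2980 in edge against neural. Other counts of all genes that moved over 1.5 times were, in tumor against edge, 322 to 1699 with DESeq2, 585 with library size alone, 547 with an edge of 2 steps, 2664 with 2-means and 0 with an unsmoothed share or joined edge sides; in edge against neural, 2525 with joined sides, 2416 with neural tissue at 4 to 12 steps and 2326 with 2-means; and 0 to 1479 between the edge sides with DESeq2. Library size alone moved the median of all genes in tumor against neural from -0.14 to -0.46 and the share of calls that were higher from 48.2% to 28.8%, against 58.5% with DESeq2, and in edge against neural from -0.09 to -0.29 and from 47.4% to 34.1%. Without the block the share in tumor against neural was 38.9%.

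None of the directions that turned belonged to a called difference, and the largest turns were with 2-means regions. In tumor against neural, Gclc (-0.01) was 0.15 with DESeq2 and RLE factors, 0.10 without the block, 0.11 with neural tissue at 4 to 12 steps and 0.043 unsmoothed. In tumor against edge, Nqo1 was -0.016 with library size alone, and with 2-means Nqo1 was -0.16 and Txnrd1 0.28. In edge against neural, Gclm was 0.0051 with DESeq2, 0.0046 with RLE factors and 0.043 with 2-means, Slc7a11 was -0.071 with library size alone and -0.020 unsmoothed, Srxn1 was 0.030 with neural tissue at 4 to 12 steps, and with 2-means Mt1 was 0.59 and Mt2 0.76. Between the edge sides, Nqo1 was 0.075 with DESeq2, 0.059 with RLE factors, 0.063 without the block, 0.21 with an edge of 2 steps, 0.0051 with a minimum of 1000 UMIs and 0.014 with the tumor mass from groups of at least 60 spots, a setting chosen after seeing the data. Txnrd1 was 0.059 with DESeq2, 0.058 with RLE factors, 0.010 without the block, 0.0080 with the minimum of 1000 UMIs and 0.018 unsmoothed. With 2-means, Gclc was 0.015, Gclm 0.15, Txnrd1 0.62, Srxn1 0.12 and Slc7a11 1.18. The cause was not tested.

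Leaving out a section left no residual degrees of freedom and so no count of calls. Fold changes of the remaining section ran from -0.72 to 0.59 for Gclc and -1.10 to 0.34 for Gclm in tumor against neural. In tumor against edge they ran from -0.0062 to 0.24 for Nqo1, -0.51 to 0.66 for Gclc, -0.995 to 0.41 for Gclm, -0.34 to 0.17 for Txnrd1 and -0.95 to 0.032 for Srxn1. They ran from -0.17 to 0.46 for Slc7a11 in edge against neural, and between the edge sides from -0.35 to 0.28 for Nqo1 and -0.081 to 0.070 for Txnrd1.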

Other observations

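Spots of section 2 that entered no comparison included a group of 45 spots in which choroid plexus markers summed to 226209 CPM. Nqo1 measured 161 CPM there (without TMM factors), above the 18.2 to 24.8 CPM (with them) of the 4 regions of that section. Mt3 measured 1342 CPM, Mt1 622 CPM and Mt2 203 CPM. On the map of Mt1 it is the dark island in the gap. A second group of 72 spots with epithelial markers at 10831 CPM, under the size set for a tumor mass, measured 1528 CPM for Mt1, 1116 CPM for Mt2, 105 CPM for Mt3, 107 CPM for Gclm and 46.6 CPM for Gclc. These are single groups of spots with no replicate.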
